A study of Mus musculus with 2 samples.

Results

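The genes described here are 2 neurexins, Nrxn2 and Nrxn3, and 3 neuroligins, Nlgn1, Nlgn2 and Nlgn3, which were taken by symbol and make 5 of the 55416 genes in the count matrices. They were followed in nuclei of whole fetal mouse brain from 2 libraries of single-nucleus RNA-seq, 1 from wildtype mice and 1 from Cav1 knockout mice; the title of the study concerns caveolin 1 and metabolic programming of the fetal brain. Both samples are given only as fetal, without a day of gestation, a strain or the allele of Cav1, and whether a library holds 1 brain or several is not given. Nuclei were prepared from frozen tissue and captured with 10x Genomics 3′ chemistry, in which RNA molecules are tagged with unique identifiers (UMIs) before amplification. Values are raw UMIs and CPM, a share of all UMIs of a class scaled to 1000000. Of values given as a pair, the former belongs to the wildtype-labelled and the latter to the knockout-labelled library.

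Neurexins are membrane proteins of the presynaptic terminal. Across the synaptic cleft they bind neuroligins, which sit in the postsynaptic membrane and recruit scaffold proteins there. Nlgn1 is known mainly from excitatory synapses, Nlgn2 from inhibitory synapses, where it works with the scaffold gephyrin (Gphn), and Nlgn3 from both. In fetal brain most neurons are still migrating and growing axons, so RNA of these genes does not show that synapses are present.

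The wildtype-labelled library kept 6686 nuclei with 17205381 UMIs and the knockout-labelled library 6680 nuclei with 19878903 UMIs, at medians of 2133.5 and 2366 UMIs per nucleus. Cav1, the targeted gene, had 71 UMIs (4.13 CPM) in the former and 80 UMIs (4.02 CPM) in the latter, so its RNA did not separate the genotypes, and the libraries are called by their labels. The part of Cav1 that was deleted is not given, so a 3′ tag may lie outside it. Of the barcodes kept, 10 occurred in both libraries. Clustering gave 30 clusters, of which the marker lists named 5 as progenitor-like (976 wildtype-labelled and 846 knockout-labelled nuclei), 5 as glutamatergic-like (1658 and 1265) and 4 as GABAergic-like (1154 and 905), called progenitor, glutamatergic and GABAergic below. Of the 17 progenitor markers, 16 and 17 were highest in the progenitor class, as were 11 and 11 of the 11 glutamatergic markers and 16 and 15 of the 17 GABAergic markers in theirs. The classes were named from these same lists, so these counts describe the classes and do not test their names. Clusters left unnamed made up 39.7% and 51.2% of the libraries. With 1 library per genotype no comparison between the genotypes could be tested. Brackets give 95% intervals, exact Poisson for CPM, conditional binomial for ratios and exact binomial for shares, and all of them cover counting error only, not variation between animals.

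The 5 genes differ greatly in size, which matters because nuclear RNA holds introns. In the GENCODE annotation of GRCm39, Nrxn3 spans 1612 kb on the plus strand of chromosome 12 (88689646 to 90301709), Nlgn1 906 kb on the minus strand of chromosome 3 (25480379 to 26386609) and Nrxn2 125 kb on the plus strand of chromosome 19 (6468761 to 6594199). Nlgn3 spans 26.8 kb on the plus strand of chromosome X (100342750 to 100369570) and Nlgn2 14.7 kb on the minus strand of chromosome 11 (69713948 to 69728613). Per kilobase of gene span over all nuclei, Nlgn2 had the highest level, with 4.15 CPM per kb and 4.09. Nrxn3 (2.01 and 2.07), Nrxn2 (1.77 and 2.06) and Nlgn1 (1.68 and 1.69) lay close together, and Nlgn3 was lowest (0.78 and 1.05). Per kilobase of exon the order was instead Nrxn3 (256 in the wildtype-labelled library), Nlgn1 (108), Nrxn2 (16.1), Nlgn2 (9.87) and Nlgn3 (2.26). The rank between these genes thus turned on whether introns enter the length, and whether intronic reads were counted is not given in the sources used here.

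Windows of 250 bases before an annotated transcript start were found for 3 of the 5 genes in RefSeq sequences of the GRCm38.p6 build, an older build than that of the gene positions above. Nrxn3 had 3 such windows and Nlgn1 had 2, which start different transcripts, and Nlgn2 had 1. They are shown for the most class-restricted neurexin and for the neuroligins of excitatory and of inhibitory synapses. Both strands were searched for TAATTA, a core of homeodomain sites. They were also searched for CAGCTG, an E-box, which capitals mark. The TATA box letters TATAAA were searched as the last of 3 motifs, none of which contains another. The Nrxn3 window is chr12:89812233-89812482 (plus strand, the most downstream of the 3), the Nlgn1 window chr3:26331910-26332159 (minus strand) and the Nlgn2 window chr11:69837785-69838034 (minus strand).
Nrxn3: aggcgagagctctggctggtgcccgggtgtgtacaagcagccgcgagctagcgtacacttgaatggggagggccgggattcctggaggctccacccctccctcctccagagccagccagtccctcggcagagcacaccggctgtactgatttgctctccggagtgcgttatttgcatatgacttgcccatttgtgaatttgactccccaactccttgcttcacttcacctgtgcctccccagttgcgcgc
Nlgn1: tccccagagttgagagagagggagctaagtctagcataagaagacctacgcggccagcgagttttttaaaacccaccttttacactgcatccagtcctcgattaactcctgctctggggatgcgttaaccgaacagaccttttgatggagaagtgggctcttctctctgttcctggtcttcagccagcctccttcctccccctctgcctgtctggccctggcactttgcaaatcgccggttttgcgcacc
Nlgn2: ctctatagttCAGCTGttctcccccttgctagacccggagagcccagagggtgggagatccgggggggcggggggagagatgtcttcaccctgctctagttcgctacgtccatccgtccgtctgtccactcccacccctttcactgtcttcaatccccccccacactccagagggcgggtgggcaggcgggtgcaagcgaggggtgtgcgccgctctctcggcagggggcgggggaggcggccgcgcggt
The Nlgn2 window had 67.6% G and C and 18 CG pairs, against 60% and 12 for this Nrxn3 window and 53.6% and 9 for this Nlgn1 window, with medians of 52.4% and 6 over all 32851 windows of this length. The windows not shown were below both medians. Those of Nrxn3 had 45.6% and 2 CG pairs, and 46.8% and 5, and that of Nlgn1 had 43.6% and 5. CAGCTG occurred in the Nlgn2 window only, among the 6 windows of these genes, and in 13.0% of all windows. TAATTA, present in 4.84% of all windows, and TATAAA, present in 12.4%, occurred in none of the 6.

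Nrxn3, the neurexin with the highest UMI count, was concentrated in GABAergic nuclei. In GABAergic nuclei it had 13517 CPM (13364 to 13672) in the wildtype-labelled library and 13255 CPM (13092 to 13420) in the knockout-labelled library. Glutamatergic nuclei had 786 and 873 CPM, and progenitors 835 and 884 CPM. The level in GABAergic nuclei was therefore 17.2-fold that of glutamatergic nuclei in the wildtype-labelled library and 15.2-fold in the other, and 16.2-fold and 15.0-fold that of progenitors. Over progenitors these are log2 ratios of 4.02 and 3.91, which were 2.81 and 2.68 at a clustering resolution of 0.5. GABAergic nuclei contributed 53.2% of all Nrxn3 UMIs with 12.7% of all UMIs in the wildtype-labelled library, and 38.0% with 9.58% in the knockout-labelled library.

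**Figure D1:**
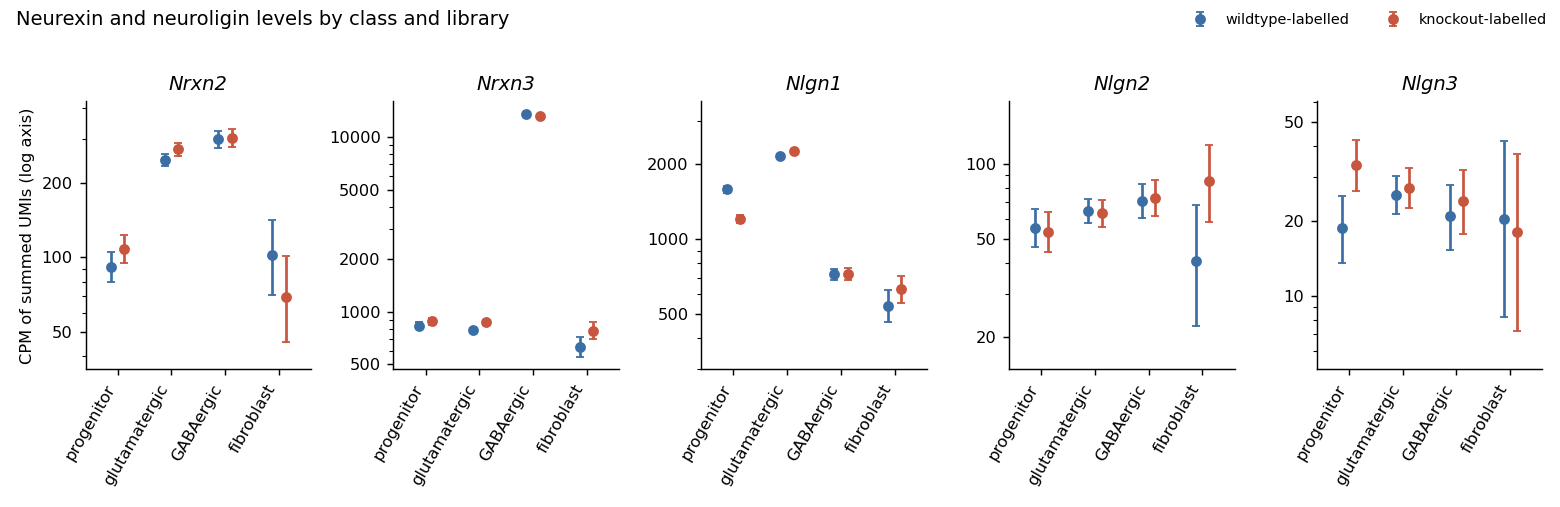
CPM of summed UMIs on log axes for each gene in progenitor, glutamatergic, GABAergic and fibroblast nuclei of the wildtype-labelled (blue) and knockout-labelled (red) libraries, with 1 point per library and exact 95% Poisson intervals. Nrxn3 lies above 10000 CPM in GABAergic nuclei only, Nlgn1 is highest in glutamatergic nuclei, and Nlgn2 and Nlgn3 differ little between classes.

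Within the GABAergic class Nrxn3 followed the forebrain type. The 3 clusters with Dlx1, a transcription factor of forebrain GABAergic neurons, had 15237 CPM and 14608 CPM. The cluster with Gata3, led by Pax7 and Dmbx1, transcription factors of the midbrain, had 7967 and 7843 CPM. Nrxn3 was 1.91-fold and 1.86-fold higher in the former. The highest level of all was in the cluster led by Nxph2 and Lhx6, a factor of interneurons from the medial ganglionic eminence, with 17948 and 17381 CPM, followed by the cluster with Nkx2-1 at 16775 and 15430 CPM. The lowest was 138 and 132 CPM, in an unnamed cluster with Eomes among its leading genes, so that the 28 clusters of at least 20 nuclei per library spanned 130-fold and 131-fold. Across these clusters Spearman's rho between the libraries was 0.96.

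With every nucleus thinned to 1000 UMIs, Nrxn3 had a UMI in 97.8% and 96.98% of GABAergic nuclei, with a median of 12 UMIs per nucleus in both. It had a UMI in 18.8% (17.0 to 20.8) and 21.1% (18.8 to 23.5) of glutamatergic nuclei, and in 20.9% (18.4 to 23.7) and 25.2% (22.2 to 28.3) of progenitors. Fibroblast-like nuclei, of a cell type that forms no synapses, had a UMI in 15.2% (8.97 to 23.6) and 13.0% (7.27 to 20.8) of nuclei, so the glutamatergic shares were within or just above the fibroblast intervals. Without thinning the shares were 28.6% and 33.4% in glutamatergic nuclei, at medians of 2605.5 and 2881 UMIs, and 24.1% and 24.5% in fibroblast-like nuclei, at 2485.5 and 3009 UMIs. In CPM, fibroblasts (631 and 782) and Cajal-Retzius nuclei (684 and 564) were below glutamatergic nuclei (786 and 873). Choroid plexus epithelium (1657 and 1983), mural nuclei (1472 and 1961) and microglia or macrophages (1095 and 3008) were above them. How low Nrxn3 stood against background thus depended on the class used for comparison.

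**Figure D2:**
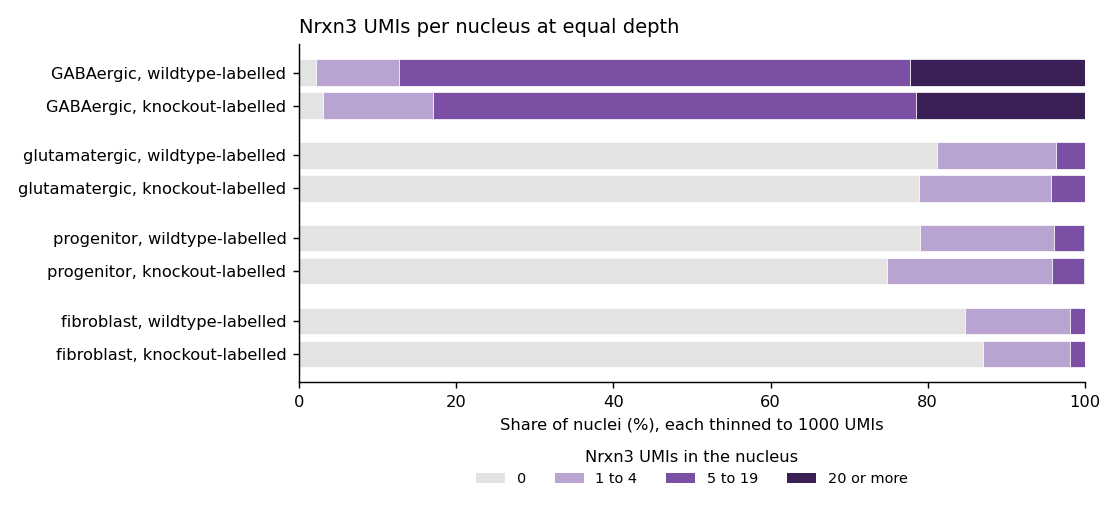
Share of nuclei with 0, 1 to 4, 5 to 19, or 20 or more Nrxn3 UMIs after each nucleus was thinned to 1000 UMIs, for 4 classes and both libraries. Of GABAergic nuclei 87.2% and 83.0% have 5 or more, against 3.72% and 4.33% of glutamatergic nuclei.

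In glutamatergic nuclei and progenitors the Nrxn3 UMIs lay in few nuclei. Glutamatergic nuclei held 6.90% and 5.54% of all Nrxn3 UMIs and progenitors 3.44% and 2.92%, while the clusters left unnamed held 35.0% and 51.7%. Of 1613 wildtype-labelled glutamatergic nuclei at this depth, 60 (3.72%) had 5 or more Nrxn3 UMIs and held 54.1% of the Nrxn3 UMIs of their class. In the knockout-labelled library 53 of 1223 (4.33%) held 52.5%. Among progenitors, 37 of 931 nuclei held 53.9% and 34 of 806 held 52.9%. These nuclei also carried UMIs of GABAergic genes. A UMI of Gad1, Gad2 or Slc32a1, which make and load GABA, was present in 76.7% and 67.9% of the glutamatergic nuclei with 5 or more Nrxn3 UMIs, against 9.79% and 12.2% of the other glutamatergic nuclei. Their median depth was also greater, 4213.5 and 4574 UMIs against 2610.0 and 2889. For progenitors the shares were 83.8% and 61.8% against 10.9% and 11.1%. These counts were chosen after the class levels had been seen.

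Nrxn3 was also set against Gad2, which makes GABA, in classes that differed widely in level. There were 16.5 and 17.5 Nrxn3 UMIs per Gad2 UMI in GABAergic nuclei of the wildtype-labelled and knockout-labelled libraries, and 16.5 and 19.6 in glutamatergic nuclei. Progenitors had 12.1 and 18.7, from 158 and 104 Gad2 UMIs, and fibroblasts 11.4 and 12.2, from 19 and 25. The classes with the fewest Gad2 UMIs varied more, with 33.2 and 13.5 in choroid plexus epithelium (9 and 27 Gad2 UMIs), 7.08 and 18.4 in microglia or macrophages (12 and 12) and 11.7 and 18.6 in mural nuclei (11 and 14). Cajal-Retzius nuclei had 84 and 77 Nrxn3 UMIs to 8 and 1 Gad2 UMIs. When the 8% of nuclei with the highest doublet scores were removed and the rest reclustered, Nrxn3 had 392 and 564 CPM in glutamatergic nuclei, 592 and 785 CPM in progenitors, and 14224 and 13703 CPM in GABAergic nuclei. The share of the remaining level that came from free RNA or from joined nuclei was not tested.

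Nrxn2, the other neurexin measured, was the more even of the pair and was higher in the 2 neuron classes than in progenitors. It had 299 and 303 CPM in GABAergic nuclei and 246 and 272 CPM in glutamatergic nuclei. Progenitors had 91.5 CPM and 108 CPM. The level in glutamatergic nuclei was 2.69-fold and 2.52-fold that of progenitors, and that in GABAergic nuclei 3.27-fold and 2.81-fold. GABAergic exceeded glutamatergic nuclei by a log2 ratio of 0.28 (0.14 to 0.42) and 0.15 (0.01 to 0.30). With classes taken from marker UMIs per nucleus, in place of clusters, the excess of glutamatergic nuclei over progenitors was smaller, at log2 ratios of 0.66 and 0.61. Unnamed clusters, which these classes leave out, did not all follow this order. The one with Eomes among its leading genes, with 5 glutamatergic markers, had 141 and 143 CPM. The low-depth one led by Hba-x, with 10 progenitor markers, had 219 and 248 CPM.

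Dividing progenitors, the cluster led by Iqgap3 and Cdc25c, had less of both neurexins than the sum of the other progenitor clusters. Nrxn2 had 66.8 CPM (48.7 to 89.4) there and 76.0 CPM (55.8 to 101), against 102 and 121 CPM, from 45 and 47 UMIs. Not every other progenitor cluster was apart from it. The cluster led by Tfap2c had 81.5 CPM (62.8 to 104) and 98.1 CPM (72.8 to 129) of Nrxn2, intervals that overlapped those of the dividing cluster. Nrxn3 had 658 and 679 CPM against 909 and 965 CPM, although the cluster led by Pdlim3 and Cyp26b1 was lower still in the wildtype-labelled library, at 516 CPM (442 to 600). The log2 ratio was -0.61 (-1.12 to -0.12) and -0.67 (-1.16 to -0.20) for Nrxn2, and -0.47 (-0.62 to -0.31) and -0.51 (-0.67 to -0.35) for Nrxn3. At 1000 UMIs, 7.73% and 9.31% of progenitors had a Nrxn2 UMI, against 9.52% (4.66 to 16.8) and 3.70% (1.02 to 9.21) of fibroblasts, so the former share was within the fibroblast interval and the latter just above it.

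Nlgn1, the neuroligin of excitatory synapses, was highest in glutamatergic nuclei and lowest in GABAergic nuclei. Glutamatergic nuclei had 2159.8 CPM and 2270.1 CPM, progenitors 1589 and 1209.9 CPM, and GABAergic nuclei 721 and 724 CPM. GABAergic nuclei had 0.334-fold and 0.319-fold the level of glutamatergic nuclei. The log2 excess of glutamatergic nuclei over progenitors was 0.44 (0.39 to 0.50) and 0.91 (0.85 to 0.97). The order of the 3 classes was the same in both libraries, with intervals that did not overlap. With classes taken from marker UMIs the difference of GABAergic from glutamatergic nuclei shrank to log2 ratios of -0.44 and -0.22, from -1.58 and -1.65.

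Progenitors carried more Nlgn1 RNA than GABAergic nuclei taken as a class, by log2 ratios of GABAergic over progenitor nuclei of -1.14 and -0.74. In the knockout-labelled library this difference shrank to -0.08 at a clustering resolution of 2 and to -0.12 with classes from marker UMIs; in the wildtype-labelled library it was -0.57 and -0.33. At 1000 UMIs per nucleus, 61.0% (57.8 to 64.2) and 58.3% (54.8 to 61.7) of progenitors had a Nlgn1 UMI, against 69.1% and 68.5% of glutamatergic nuclei. The shares in GABAergic nuclei, 34.1% (31.2 to 37.1) and 32.8% (29.6 to 36.1), were within the intervals of fibroblasts, 29.5% (21.0 to 39.2) and 32.4% (23.7 to 42.1). In CPM the GABAergic level was above that of fibroblasts in the wildtype-labelled library, at 721 (686 to 758) against 538 (464 to 622), while the intervals overlapped in the other, at 724 (686 to 763) against 628 (551 to 712). Unlike Nrxn3 in the classes where it was low, Nlgn1 was spread over many progenitors, since nuclei with 5 or more UMIs held 29.8% and 15.1% of its UMIs there.

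**Figure D3:**
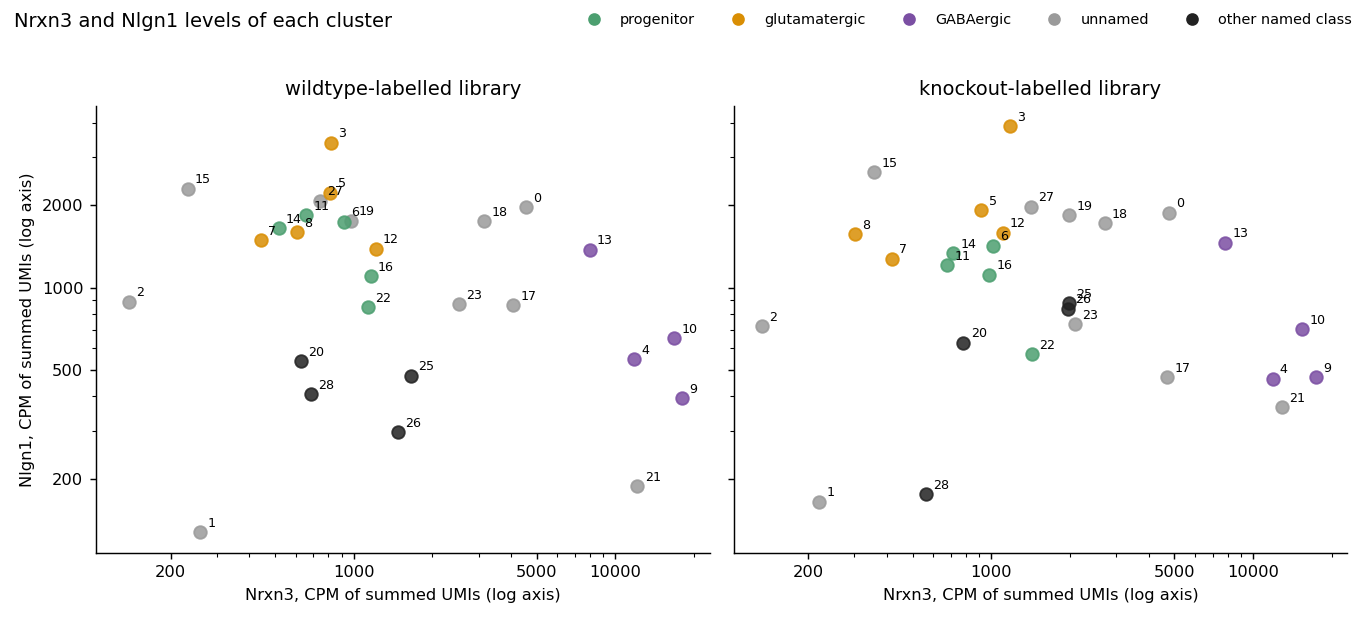
Nrxn3 (horizontal) against Nlgn1 (vertical) in CPM on log axes, 1 point per cluster of at least 20 nuclei in each library, numbered and coloured by class. Clusters 4, 9 and 10 are high in Nrxn3 and low in Nlgn1 in both libraries, cluster 3 is highest in Nlgn1, and cluster 13 is GABAergic with high Nlgn1.

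Among clusters Nlgn1 peaked in the glutamatergic cluster led by Tg, Dync1i1 and Mc4r, with 3391 and 3886 CPM, followed by an unnamed cluster led by Slit3 with 2297 and 2638 CPM. In that glutamatergic cluster 27.8% and 39.0% of nuclei had 5 or more Nlgn1 UMIs at 1000 UMIs. GABAergic clusters were not alike. Those with Dlx1 had 519 and 540 CPM, and the cluster with Gata3 had 1375 and 1461 CPM, so the former had 0.378-fold and 0.369-fold the level of the latter. Nrxn3 and Nlgn1 therefore differed in opposite directions between these GABAergic types, in both libraries. Over 60 points, 30 clusters in each of 2 libraries, Pearson's r between them was -0.19, a weak relation over points that share libraries and depth.

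Nlgn2, the neuroligin of inhibitory synapses, was nearly flat across classes. GABAergic nuclei had 71.1 CPM and 73.0 CPM in the wildtype-labelled and knockout-labelled libraries, glutamatergic nuclei 64.8 and 63.3 CPM, and progenitors 55.3 and 53.3 CPM. The log2 ratio of GABAergic over glutamatergic nuclei was 0.14 (-0.15 to 0.42) and 0.21 (-0.10 to 0.51), and that over progenitors 0.36 (0.02 to 0.71) and 0.45 (0.09 to 0.82). Only the interval against progenitors left out 0. Its scaffold partner Gphn was flat as well, with 445 and 420 CPM in GABAergic, 427 and 411 CPM in glutamatergic and 391 and 382 CPM in progenitor nuclei.

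Nlgn3, an X-linked neuroligin, was the scarcest member, with 361 UMIs and 561 UMIs. It had 25.5 and 27.3 CPM in glutamatergic nuclei, 21.0 and 24.2 CPM in GABAergic nuclei, and 18.7 and 33.7 CPM in progenitors. Every interval between classes within a library included 0. At 1000 UMIs the shares of nuclei with a Nlgn2 UMI ran from 5.09% to 6.67% over the 3 classes and both libraries, and those of Nlgn3 from 1.504% to 3.97%. Fibroblasts had 2.86% (0.593 to 8.12) and 7.41% (3.25 to 14.1) for Nlgn2, and 2.86% and 0.926% (0.0234 to 5.05) for Nlgn3. Expression of Nlgn2 and Nlgn3 by class was therefore not separable from background at this depth.

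The ranks of clusters repeated between the libraries for Nrxn2 (Spearman's rho 0.87 over 28 clusters) and Nlgn1 (0.91), as for Nrxn3, but less so for Nlgn2 (0.36) and Nlgn3 (0.12), which had the fewest UMIs. Of the 12873 genes searched, those with the pattern most like Nrxn3 over the 60 points were Gad2 (Pearson's r 0.90), Gm48700 (0.88) and Gad1 (0.88). Gm48700 lies inside Nrxn3 on the same strand, so reads of the pair may be shared. For Nrxn2 they included Mapt, which encodes the microtubule protein tau, with 0.82, and Celf4, an RNA-binding protein, with 0.81. For Nlgn1 they were Acp1, a phosphatase, with 0.84, Dab1, the adaptor of reelin signalling, with 0.80, and Dok6, a signalling adaptor, with 0.79. The highest values were lower for Nlgn2 (Gm2420 0.57, Zbtb17 0.57, Wdr81 0.56) and Nlgn3 (Gm11650 0.59, Utp4 0.59, Gm42948 0.57). Ranked by Spearman's rho, none of the 3 genes was shared for Nrxn2, Nlgn2 or Nlgn3.

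Between the libraries, a gene was counted as past the fold when the log2 ratio of its CPM was at least 0.32 in size and both libraries together had at least 100 UMIs. Over all nuclei 1 of the 5 members was past it, Nlgn3, where 12.6% of 15528 genes were. In progenitors 2 of 5 were, Nlgn1 and Nlgn3, where 17.2% of 8278 genes were. In glutamatergic nuclei 0 of 5 were, with 11.8% of all genes, and in GABAergic nuclei 0 of the 4 tested, with 14.1%; Nlgn3 had too few UMIs there. In GABAergic nuclei the log2 ratios of the 4 lay between -0.03 for Nrxn3 and 0.04 for Nlgn2. The median over all genes was -0.01 over all nuclei and -0.03 in progenitors. These counts describe 2 libraries, and genotype, animal and preparation cannot be told apart.

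**Figure D4:**
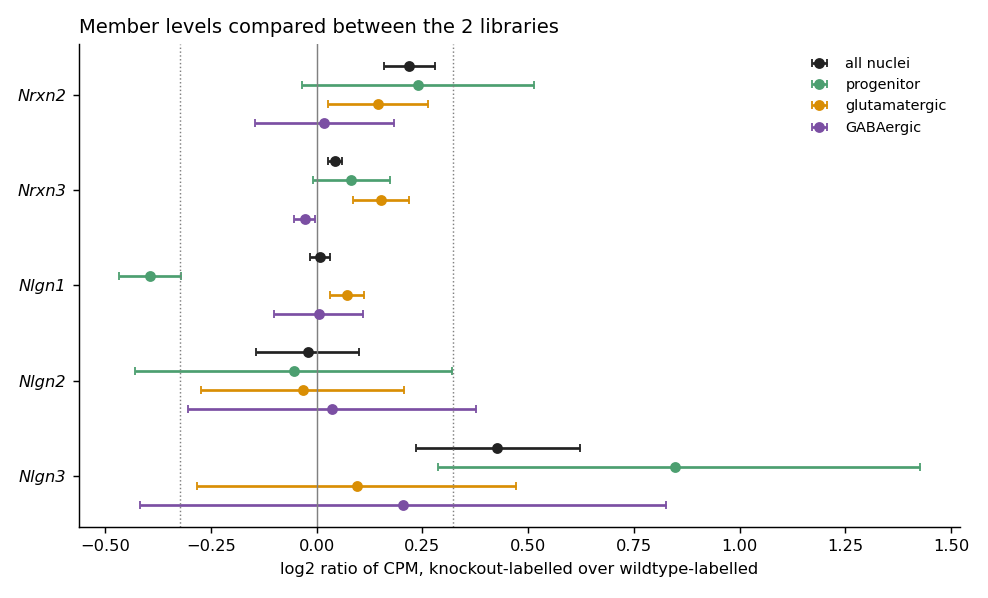
Log2 ratio of CPM, knockout-labelled over wildtype-labelled, for each gene over all nuclei and in 3 classes, with 95% intervals for counting error; dotted lines mark 0.32 in either direction. Nlgn1 in progenitors lies at -0.39, Nlgn3 lies at 0.43 over all nuclei and 0.85 in progenitors, and the other points lie between the dotted lines.

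Nlgn1 was lower in progenitors of the knockout-labelled library, with 3649 UMIs (1589 CPM) in the wildtype-labelled and 2655 UMIs (1209.9 CPM) in the knockout-labelled library. The log2 ratio was -0.39 (-0.47 to -0.32). It was lower, with an interval below 0, in 4 of the 5 progenitor clusters. In the dividing cluster Nlgn1 had 1843 and 1208 CPM, a log2 ratio of -0.61. In the cluster led by Gm20757, Rspo1 and Wnt8b, genes of the cortical hem region among them, it had 849 and 570 CPM, a ratio of -0.57. The clusters led by Tfap2c (-0.29) and by Pdlim3 and Cyp26b1 (-0.31) were just under the fold, and the cluster led by Acsbg1, with the astrocyte gene Aldh1l1, had 1099 and 1113 CPM, a ratio of 0.02. At the upper end of the range over nuclei, 7.09% and 2.85% of progenitors had 5 or more Nlgn1 UMIs at 1000 UMIs, while the shares with any UMI were 61.0% and 58.3%.

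The makeup of the progenitor class differed between the libraries, since the Tfap2c cluster was 38.0% of it and 27.9% and the Cyp26b1 cluster 12.5% and 23.4%. Without these clusters the ratio was -0.48. With progenitors taken as nuclei with at least 3 progenitor marker UMIs it was -0.08, under the fold; that rule took 2250 and 2288 nuclei, of which 754 and 649 were in the progenitor class. Over all nuclei Nlgn1 was level, at 1519 and 1529 CPM. Over the 30 clusters 11 had an interval below 0 and 6 an interval above 0. In glutamatergic nuclei its ratio was 0.07 (0.03 to 0.11), but the clusters differed, with ratios of 0.20 (0.14 to 0.26) in the cluster led by Tg, and -0.21 and -0.22 in clusters 5 and 7 of the plot of Nrxn3 against Nlgn1.

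**Figure D5:**
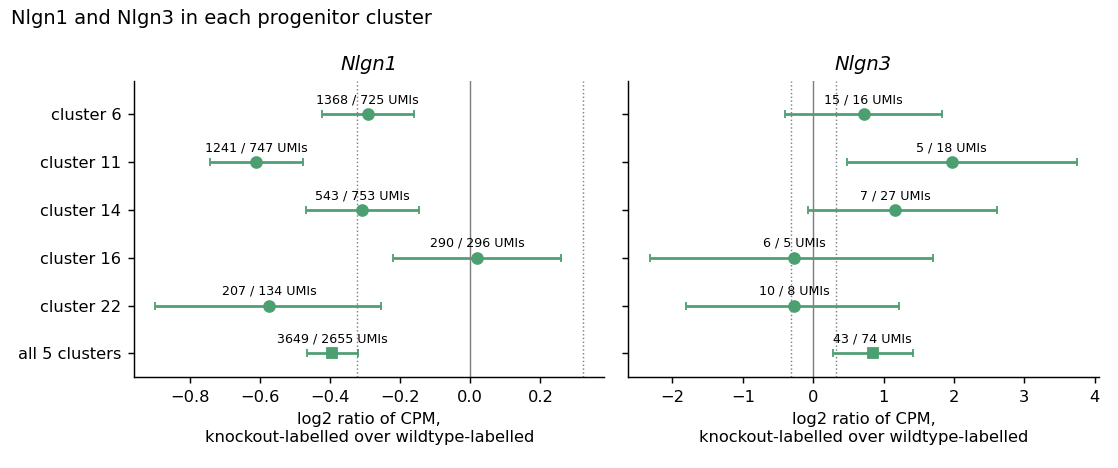
Log2 ratio of CPM, knockout-labelled over wildtype-labelled, for Nlgn1 and Nlgn3 in each progenitor cluster (circles) and their sum (squares), with 95% counting intervals, lines at 0.32 (dotted) and the UMIs of the wildtype-labelled and knockout-labelled library. For Nlgn1 4 of 5 clusters have intervals below 0; for Nlgn3 the intervals are wide and only cluster 11 leaves out 0.

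Nlgn3 was higher in the knockout-labelled library, with 21.0 CPM (18.9 to 23.3) and 28.2 CPM (25.9 to 30.7) over all nuclei. The log2 ratio was 0.43 (0.23 to 0.62), and it stayed past the fold, between 0.38 and 0.59, under the alternatives run over all nuclei, but it passed neither 1.5-fold nor 2-fold as counted here. Nlgn3 was higher in 14 of the 17 clusters with at least 20 UMIs, with an interval above 0 in 5 and below 0 in 0 of them. Xist, another X-linked gene, had 1580 and 1552 CPM, a log2 ratio of -0.03. In progenitors Nlgn3 had 43 UMIs (18.7 CPM) and 74 UMIs (33.7 CPM), a log2 ratio of 0.85 (0.29 to 1.43). The clusters were uneven: the dividing cluster had 5 and 18 UMIs and the Cyp26b1 cluster 7 and 27, while the Acsbg1 cluster had 6 and 5 and the Rspo1 cluster 10 and 8. In glutamatergic nuclei the ratio was 0.10 (-0.28 to 0.47).

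Nrxn2 had 222 CPM (215 to 229) and 259 CPM (252 to 266) over all nuclei. Its log2 ratio was 0.22 (0.16 to 0.28), under the fold, and 0.14 when every cluster had the same weight in both libraries. It was 0.24 in progenitors, 0.15 in glutamatergic and 0.02 in GABAergic nuclei. Nlgn2 was level, with 60.8 and 59.9 CPM over all nuclei and a log2 ratio of -0.02 (-0.14 to 0.10).

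Nrxn3 was level over all nuclei, at 3240.2 and 3341 CPM, and in the GABAergic class, where its log2 ratio was -0.03 (-0.0525 to -0.00395). In glutamatergic nuclei, with 3848 and 3683 UMIs, the ratio was 0.15 (0.09 to 0.22), but it passed the fold at 0.52 with the highest doublet scores removed, at 0.59 with a minimum of 200 genes and at 0.63 with classes from marker UMIs. In progenitors it was 0.08, against 0.41, -0.20 and 0.36 in the same settings. In the glutamatergic cluster led by Tg, Nrxn3 had 1094 and 1398 UMIs, a log2 ratio of 0.53.

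The list of known partners held 53 genes, of which 52 had at least 100 UMIs over all nuclei. Among these 7 were past the fold upward in the knockout-labelled library and 1 downward, where 12.6% of all genes were past it in either direction, and their median log2 ratio was 0.03. The share of partners was near that background. The highest were Nxph4, a neurexophilin that binds neurexins, with 116 and 287 UMIs (1.10 as log2 ratio), Cbln1, a secreted linker of neurexins to glutamate receptors, with 90 and 180 UMIs (0.79), and Slitrk4, an adhesion protein, with 142 and 227 UMIs (0.47). The lowest were Nxph2, another neurexophilin, with 156 and 111 UMIs (-0.70), Ntrk3 (-0.12) and Ptprd (-0.12), which encode adhesion receptors of neurons. Cbln2, of the same family as Cbln1, had 218 and 318 UMIs (0.34). Nuclei outside the named classes were a larger share of the knockout-labelled library, and the part of that share in these ratios was not tested.

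Of the 13 neuroligin partners and postsynaptic scaffolds 0 passed the fold over all nuclei, against the 12.6% of all genes given above, and their log2 ratios ranged from -0.10 to 0.16. The excitatory scaffold Dlg4 had 75.6 and 75.7 CPM, Gphn 426 and 419 CPM, and Mdga1, an inhibitor of neuroligin binding, 95.5 and 92.2 CPM. Mdga2, of the same family, had 800.0 and 866 CPM, a log2 ratio of 0.11. Cask, the presynaptic scaffold that binds neurexins, had 359 and 352 CPM. The postsynaptic neurexin ligand Lrrtm1 had 124 and 118 CPM and Lrrtm2 10.3 and 10.1 CPM. Lrrtm4, the member of that family with the most UMIs and named after its values were seen, had 8582 and 12457 UMIs (499 and 627 CPM), a log2 ratio of 0.33 that passed the fold over all nuclei. In glutamatergic nuclei its ratio was 0.03.

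By class, progenitors had 37 partners tested, of which 5 were past the fold upward and 0 downward, with a median of 0.04, where 17.2% of all genes were past it. They were Igsf21, a neurexin ligand (57 and 82 UMIs, 0.59), and, named after their values were seen, Slitrk2 (0.56), Apba1 (0.48), Mdga2 (0.46) and Adgrl3 (0.44). Mdga2 had 269 and 371 CPM in progenitors, the class in which Nlgn1 was lower. Both are sums over the class, and whether they were related from nucleus to nucleus was not tested. The lowest was the scaffold Dlg2 (-0.18). In glutamatergic nuclei 0 of 42 passed the fold in either direction, from Lrrtm3 at -0.23 to Clstn1 at 0.27, with a median of -0.06, where 11.8% of all genes were. In GABAergic nuclei 3 of 40 were past it upward, Lin7a (64 and 82 UMIs, 0.56), Clstn1 (0.38) and Dag1 (0.34), and 2 downward, Lrrtm3 (117 and 78 UMIs, -0.38) and Nxph2 (-0.37), with a median of -0.08, where 14.1% of all genes were; Dag1 and Nxph2 were named after their values were seen.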

How the data were processed

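Gene levels were measured by single-nucleus RNA-seq in 2 libraries, 1 per genotype, grouped by the genotype in the labels. The values the authors deposited are unnormalized UMI counts by gene and nucleus barcode, written by Cell Ranger 6.1.1 per the file headers, while the submitters' processing notes name Cell Ranger 3.0.1, STAR and GRCm39. Whether introns or strand entered the counting is not given in the sources used here, so reads of overlapping genes cannot be told apart. Genes inside a member and listed in the matrices include Gm14964 on the strand opposite Nrxn2 (780 and 801 UMIs), Gm48700 in Nrxn3 (456 and 606) and Gm6197 opposite Nlgn1 (301 and 330).

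Nuclei with at least 500 genes and at most 5% mitochondrial UMIs were kept, which left out 2969 and 3904 barcodes for genes and 108 and 227 for mitochondrial UMIs. Both libraries were clustered together without correction (scanpy 1.11.5, leidenalg 0.10.2). Counts were scaled to 10000 UMIs, and 2000 variable genes were chosen in total from their ranks in both libraries. The other settings were 30 principal components, 15 neighbours and resolution 1. The members, their partners, Cav1, Xist and Y-linked and mitochondrial genes did not enter the clustering. A cluster took a class name from at least 3 markers at 2-fold or more over the other clusters, with no other list reaching more than 50% of that number. It stayed unnamed if another class list had more of its 10 leading genes. The same held if its depth was far below the library median and none of its markers led. With 10 progenitor markers each, the low-depth cluster led by Hba-x (633 and 968 nuclei) and the cluster led by Pdgfra stayed unnamed by these rules. The former had 127 and 165 CPM of Nlgn1. These thresholds were set after the clusters were seen, and the names are not the authors'. Scrublet's automatic threshold marked 0 nuclei in both libraries and so had not worked, and no doublets were removed except in an alternative.

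UMIs were summed per library and class. There was no test: with 1 library per genotype, ratios have counting intervals only, and a log2 ratio of 0.32 with at least 100 UMIs served as a count rule. Shares of nuclei used each nucleus thinned to 1000 UMIs, leaving out 846 and 1111 shallower nuclei. The scripts were tested on simulated data. Members and gene lists were chosen with earlier results of these data known. The genes named were the members, a preset set of partners, the 3 highest and 3 lowest partners over all nuclei, the highest and lowest in each class, and the 3 genes most like each member by Pearson's r of log2(CPM + 10). Some genes and clusters that this rule or the clustering gave are not reported here.

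Alternatives varied the gene minimum, the clustering, the class rule, depth, doublets and the fold. Left out were clusters without a class name, except where stated.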

Additional observations from a re-analysis of the deposited data

How the results depend on the processing

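Of the recomputed values of the comparisons, 191 moved by less than their counting interval or 1.5 times, 39 moved further and none of the called directions turned. No paired analysis was possible because each genotype has 1 library. The alternatives without the low-depth cluster and without the unequal progenitor clusters were chosen after seeing the data. Over all nuclei, equal cluster weights gave log2 ratios of 0.14 for Nrxn2, 0.0199 for Nrxn3 and -0.0423 for Nlgn1; Nrxn3 was 0.10 with a minimum of 1000 genes, 0.0201 with 200 genes and 0.00043 with thinned nuclei. In progenitors Nrxn3 was 0.25 with 1000 genes, -0.20 with 200 genes, 0.41 without doublets, -0.0149 with all variable genes used, 0.36 with classes from marker UMIs and 0.24 with thinned nuclei. Nlgn1 there was -0.32 with 200 genes, -0.0837 with classes from marker UMIs and -0.48 without the unequal clusters. In glutamatergic nuclei Nrxn3 was 0.0846, 0.59, 0.52, 0.25, 0.63 and 0.0622 in the same 6 settings as in progenitors, and Nlgn1 0.13 with 200 genes and -0.0879 with marker UMIs. In GABAergic nuclei Nrxn3 was 0.0183 with 1000 genes, 0.0036 with 200 genes, -0.0538 without doublets, -0.18 at resolution 2, 0.0068 at resolution 0.5 and 0.0015 with all variable genes, and Nlgn1 was -0.11 with 1000 genes and 0.12 both at resolution 2 and with marker UMIs. For these the cause was not tested. Members past the fold were 0 at 1.5-fold and 0 at 2-fold over all nuclei, and 1 and 0 in progenitors. With partners of at least 20 UMIs, 10 of 47 were past the fold in progenitors, 6 of 52 in glutamatergic and 10 of 49 in GABAergic nuclei, where 30.7%, 25.3% and 28.9% of all genes were. Depth limits Nlgn2 and Nlgn3: in none of the 3 classes did the share of nuclei with a UMI lie outside the interval of fibroblast-like nuclei.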

Other observations

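Several clusters outside the 3 classes had member levels of their own. The largest unnamed cluster, led by genes that include Sim1 and Slc6a5, the glycine transporter of inhibitory neurons, had 674 and 1131 nuclei (wildtype-labelled library first, as in every pair here). Both Nrxn3 (4564 and 4758 CPM) and Nlgn1 (1963 and 1879 CPM) were high in it, and Nlgn3 (41 and 137 UMIs) differed by 0.78 (0.27 to 1.32) on the log2 scale. An unnamed cluster of dividing nuclei with Dlx6os2, a transcript of the forebrain GABAergic lineage, had 12147 and 12918 CPM of Nrxn3, close to the GABAergic clusters. Its Nrxn2 level was 173 and 143 CPM. In the unnamed cluster led by Pdgfra, Bcas1 and Cspg4, genes of the oligodendrocyte lineage, Nlgn3 had its highest level of any cluster with at least 20 nuclei per library, 121 and 56.7 CPM, from 8 and 10 UMIs only.

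Some unnamed clusters differed between the libraries in 1 or more members. In the unnamed cluster with Rarb and Rxrg, Nlgn1 had 862 and 471 CPM, a log2 ratio of -0.87 (-1.15 to -0.60), Nlgn3 had 8 and 17 UMIs, a ratio of 1.72 (0.43 to 3.14), and Nrxn3 4058 and 4701 CPM, a ratio of 0.21 (0.11 to 0.31). In the unnamed cluster with Ebf2, Nrxn3 (301 and 1444 UMIs) differed by 1.02 (0.84 to 1.20), and 3.80% and 14.6% of the nuclei had 5 or more Nrxn3 UMIs at 1000 UMIs. These clusters were picked after their values were seen, and the differences have no replicate check.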
